A study of Macaca mulatta with 6 samples.

Results

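Integrin subunit genes were followed in RF/6A cells after exposure to human serum with or without active complement. The line is described as endothelial, from the rhesus macaque choroid and retina. The 10 genes were chosen by name as integrin subunits, with earlier results of these data known. They were ITGA1, ITGA2, ITGA3, ITGA5, ITGA6, ITGA11, ITGAV, ITGB1, ITGB3 and ITGB5. All 10 were present, with 19 annotated transcripts, among the 24932 genes and 44605 transcripts of the table. As the table places them, ITGA1 and ITGA2 lie on chromosome 6, ITGA3 and ITGB3 on 16, ITGA5 on 11, ITGA6 and ITGAV on 12, ITGA11 on 7, ITGB1 on 9 and ITGB5 on 2. Normal serum raised 7 of them, lowered ITGA11 and left ITGB1 and ITGB5 short of the threshold. The mix of alpha subunits differed as well: ITGA5 held the largest share of alpha subunit transcripts in normal serum, and ITGA11 held it in heat-inactivated serum.

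Integrins are transmembrane receptors made of an alpha and a beta subunit, and they tie the extracellular matrix outside the cell to the actin cytoskeleton inside. The alpha subunit largely sets which matrix protein is bound. ITGA1, ITGA2 and ITGA11 pair with ITGB1 into collagen receptors, ITGA3 and ITGA6 into laminin receptors, and ITGA5 into the main fibronectin receptor. ITGAV pairs with several beta subunits, among them ITGB1, ITGB3 and ITGB5, and recognises the arginine-glycine-aspartate (RGD) motif of vitronectin, osteopontin and other ligands. In endothelial cells these receptors are known for anchoring cells to the basement membrane and for their part in migration and vessel growth.

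The normal serum group received 50% normal human serum, which can assemble the complement membrane attack complex, for 4 hours (3 libraries), and the heat-inactivated serum group received 50% human serum whose complement had been inactivated by heat, also for 4 hours (3 libraries). Both groups were the same cell line, grown to confluence on porous inserts in medium with fetal bovine serum and antibiotics, and polyadenylated RNA was sequenced. No group had complement removed in another way, so active complement and other heat-sensitive parts of serum cannot be told apart. The labels do not say whether replicates were separate cultures, so the error behind each p-value is that of these libraries and could be technical only.

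Levels are in FPKM, fragments scaled for transcript length and library depth, summed over the transcripts of a gene. Read from the steps of the lowest values, the depth was between 14250000 and 17350000 fragments in replicates 2 and 3 of both treatments. In the replicate 1 libraries, where 48.1% and 53.1% of low values were whole within 0.1 fragments against 100% in the others, it was about 13300000 and 16050000. At these depths the integrin gene with the fewest fragments, ITGA6, had about 249 in its lowest library and ITGB1 about 8901. The replicate 1 libraries stand apart from the other 4 in this way, so the integrin results are also given without them.

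The endothelial label was checked against 14 markers, of which 13 were found. Their summed level was 103 to 111 FPKM in normal serum and 79.3 to 80.6 FPKM in heat-inactivated serum, most of it from ENG, with 4 of 5 tested called higher and none lower. CDH5, the endothelial cadherin, was listed at 0 in all heat-inactivated serum libraries and reached at most 0.0185 FPKM in normal serum. TIE1, TEK, ROBO4, ERG, KDR and CLDN5 stayed below 0.5 FPKM in every library. Other endothelial markers were present at low levels, with FLI1, PECAM1, EGFL7, ESAM and VWF averaging 12.2, 7.95, 6.21, 4.91 and 1.05 FPKM in normal serum, against 6.58, 3.35, 5.47, 2.63 and 0.172 FPKM in heat-inactivated serum. Mural and fibroblast markers summed to 4789 to 5040.4 FPKM in normal serum and 8017 to 8537 FPKM in heat-inactivated serum, with 3 of 12 called higher and 8 lower. The endothelial label was thus not borne out by CDH5, TIE1, TEK, ROBO4, ERG, KDR and CLDN5. It rested on ENG and on low levels of the others. Mural and fibroblast markers summed far above the endothelial ones in every library. Leukocyte and platelet markers summed to 13.5 to 16.2 FPKM in normal serum and 14.4 to 19.4 FPKM in heat-inactivated serum, with 1 of 3 tested called lower, none higher and PPBP at 0 in all libraries. Pigment epithelium markers summed to 36.1 to 43.5 FPKM in normal serum and 37.1 to 41.7 FPKM in heat-inactivated serum, and the 1 tested was not called. Beside these counts, 27.8% of all genes tested were called higher and 26.1% lower. A change in the number of cells of a type and in the RNA of each cell cannot be told apart in such bulk samples.

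Of the 10 integrin genes 7 were called higher and 1 lower in normal serum (limma, Benjamini-Hochberg adjusted p under 0.05 over all genes). Among the 11818 genes tested 54.0% were called, 27.8% higher and 26.1% lower. The median change of the 10 genes was 0.51 on the log2(FPKM + 1) scale, against 0.01 for all genes tested. For the 6 other integrin subunits tested it was -0.42, with 2 called higher and 4 lower. The libraries of the treatments did not overlap for 8 of the 10 genes, 7 higher and 1 lower. They did not overlap for 62.6% of all genes tested, 32.1% higher and 30.5% lower. ITGA2 and ITGA5, 2 of the 10, were called higher by a log2 change of at least 1, which was so for 3.47% of genes tested. The calls of these 8 genes also held within replicates 2 and 3 alone, where the highest adjusted p was 0.0209 (limma, ITGA6), and the replicate 1 pair moved the same way for each of them.

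**Figure D1:**
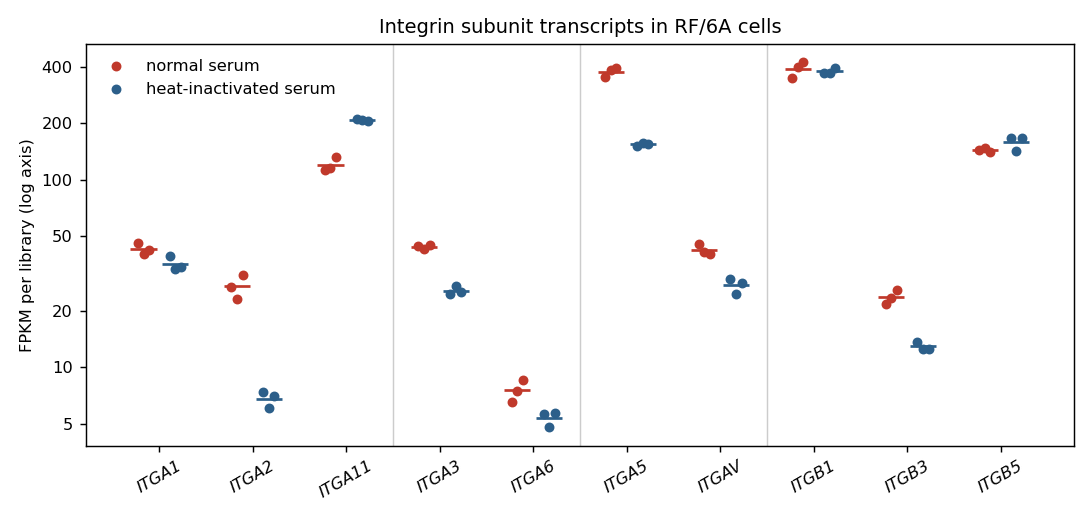
FPKM of the 10 integrin subunit genes in each library on a log axis, grouped from left to right as collagen-binding alpha, laminin-binding alpha, RGD-binding alpha and beta subunits; points are libraries and short lines are means of 3. In normal serum ITGA5 averaged 376 FPKM and ITGA11 120.0 FPKM, against 154 and 208 FPKM in heat-inactivated serum, while the points of ITGB1 and of ITGB5 overlap.

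ITGA5, the alpha subunit of the classical fibronectin receptor, showed the largest gain in level. It stood at 352, 383 and 394 FPKM in the normal serum libraries, against 151, 157 and 154 FPKM in the heat-inactivated serum libraries. Every normal serum library was more than 2 times any heat-inactivated serum library. The ratio of means was 2.44 and the log2 change 1.28 ± 0.06 (SE; limma adjusted p = 7.41e-06). Among all genes tested, 96.6% had a lower mean level than ITGA5 and 97.8% a smaller log2 change.

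ITGAV, which serves vitronectin and other RGD ligands, was at 45.5, 41.1 and 40.4 FPKM in normal serum, against 29.7, 24.5 and 28.3 FPKM in heat-inactivated serum. The treatments did not overlap, and the mean was 1.54-fold higher in normal serum (log2 change 0.61 ± 0.09, SE; limma adjusted p = 0.000987). Its beta partners differed from each other. ITGB3, the beta subunit of the vitronectin receptor known from growing vessels and platelets, was at 21.7, 23.3 and 25.8 FPKM in normal serum, against 13.7, 12.6 and 12.6 FPKM in heat-inactivated serum. All normal serum libraries were above all heat-inactivated serum libraries, with a mean 1.82-fold higher (log2 change 0.81 ± 0.08, SE; limma adjusted p = 0.000193).

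ITGB5, another partner of ITGAV and the more abundant of these beta subunits, was at 144, 147 and 140.1 FPKM in normal serum, against 166, 143 and 166 FPKM in heat-inactivated serum. The groups overlapped through heat-inactivated serum replicate 2, and the log2 change of -0.13 had a 95% interval of -0.30 to 0.04 (limma adjusted p = 0.163). Without that library ITGB5 was called lower (log2 change -0.20, adjusted p = 0.035). Quantile normalization also gave a call (log2 change -0.37, adjusted p = 0.00422), as did giving all libraries an equal FPKM total (log2 change -0.28, adjusted p = 0.0345). The ratio of ITGB3 to ITGB5 levels, which an equal total does not move but quantile normalization can, was 0.164 ± 0.0178 in normal serum and 0.0822 ± 0.00638 in heat-inactivated serum (SD, n = 3 each).

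The collagen receptor subunits moved in opposite directions. ITGA2, whose pairing with ITGB1 gives the collagen receptor also known from platelets and epithelia, was at 26.8, 23.1 and 31.1 FPKM in normal serum, against 7.36, 6.11 and 7.02 FPKM in heat-inactivated serum. The lowest normal serum library was over 3 times the highest heat-inactivated serum library. This was the largest relative change of the 10 genes, with a ratio of means of 3.95 and a log2 change of 1.83 ± 0.12 (SE; limma adjusted p = 2.91e-05), larger than that of 98.9% of genes tested.

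ITGA11, a receptor subunit for fibrillar collagen described mainly on fibroblasts, was the only one of the 10 called lower with the deposited scaling. It stood at 112, 116 and 132 FPKM in normal serum, against 209.8, 209 and 206 FPKM in heat-inactivated serum. The groups were far apart, at 120.0 ± 10.8 and 208 ± 2.20 FPKM (SD, n = 3 each), a ratio of 0.577 (log2 change -0.79 ± 0.07, SE; limma adjusted p = 0.000128). The fibroblast and mural markers given above fell in most members at the same time, and their part in the ITGA11 change was not tested.

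ITGA1, which binds collagen IV of basement membranes as well as fibrillar collagen, was at 45.8, 40.2 and 42.4 FPKM in normal serum, against 39.4, 33.4 and 34.3 FPKM in heat-inactivated serum. The groups were separate by less than 1 FPKM, and the ratio of means was 1.20 (log2 change 0.26 ± 0.08, SE; limma adjusted p = 0.0328). This call depended on single libraries and on the scaling. The adjusted p was 0.0943 and 0.0719 when normal serum replicate 1 or 3 was left out, and 0.106 and 0.101 when heat-inactivated serum replicate 2 or 3 was. Under an equal FPKM total the log2 change was 0.12 (adjusted p = 0.45), and under quantile normalization 0.11 (adjusted p = 0.32). ITGA1 and ITGA2 lie near each other on chromosome 6. In the RefSeq annotation of T2T-MMU8v2.0 a single protein-coding gene, PELO, has its start coordinate between theirs. Whether PELO overlaps ITGA1 was not checked.

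Of the laminin receptor subunits, ITGA3 was the more abundant. It was at 44.3, 42.9 and 44.9 FPKM in normal serum, against 24.7, 27.0 and 25.1 FPKM in heat-inactivated serum. The libraries within each treatment lay close together and the treatments were separate, with a mean 1.72-fold higher in normal serum (log2 change 0.76 ± 0.06, SE; limma adjusted p = 7.18e-05). ITGA6, the other laminin-binding alpha subunit, was the lowest of the 10 genes in both treatments, at 6.55, 7.51 and 8.58 FPKM in normal serum, against 5.68, 4.80 and 5.71 FPKM in heat-inactivated serum. Its groups were separate, with a ratio of means of 1.40 (log2 change 0.41 ± 0.11, SE; limma adjusted p = 0.0161). Leaving out heat-inactivated serum replicate 2 ended the ITGA6 call (adjusted p = 0.0568), and so did an equal FPKM total (log2 change 0.29, adjusted p = 0.0923).

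ITGB1, the beta subunit shared by the collagen, laminin and fibronectin receptors, was the most abundant of the 10 genes in both treatments. It was at 349.9, 399 and 422 FPKM in normal serum, against 368, 371 and 394 FPKM in heat-inactivated serum. The lowest and the highest library both belonged to normal serum. The log2 change was 0.04, with a 95% interval of -0.14 to 0.23 (limma adjusted p = 0.668), and its sign turned without normal serum replicate 3 (-0.02), under an equal FPKM total (-0.10) and under quantile normalization (-0.21). An equal total shifted the median of all genes to -0.12, and relative to that median ITGB1 was at 0.02, against 0.03 with the deposited scaling. Any change of ITGB1 transcripts inside that interval could not be resolved with 3 libraries per treatment.

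**Figure D2:**
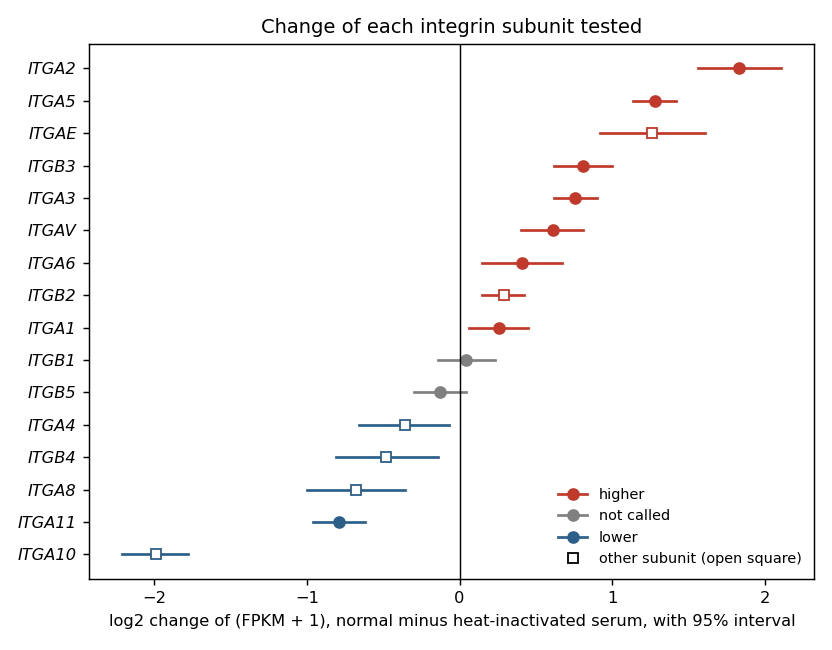
Log2 change of (FPKM + 1) in normal serum minus heat-inactivated serum with its 95% interval, for the 10 genes (filled circles) and the other 6 integrin subunits tested (open squares). Changes run from 1.83 for ITGA2 to -1.99 for ITGA10, and the intervals of ITGB1 and ITGB5 cross 0.

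Across the treatments the order of the levels changed. In normal serum the order of mean FPKM was ITGB1, ITGA5, ITGB5, ITGA11, ITGA3, ITGA1, ITGAV, ITGA2, ITGB3 and ITGA6, and the libraries overlapped between ITGB1 and ITGA5, among ITGA3, ITGA1 and ITGAV, and between ITGA2 and ITGB3. In heat-inactivated serum it was ITGB1, ITGA11, ITGB5, ITGA5, ITGA1, ITGAV, ITGA3, ITGB3, ITGA2 and ITGA6, and only ITGB5 with ITGA5 and ITGAV with ITGA3 overlapped among neighbours. Levels are per length of the annotated models, which measured 2013 to 6889 bases for these transcripts, so a comparison between genes rests on how complete each model is.

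The summed alpha level was higher in normal serum, through ITGA5, and the summed beta level did not separate. The 7 alpha subunits summed to 633, 654 and 694 FPKM in normal serum, against 468, 462 and 459.9 FPKM in heat-inactivated serum. ITGA5 alone averaged 376 FPKM in normal serum and 154 FPKM in heat-inactivated serum. That gain was larger than the gain of the sum (means 660.3 and 463 FPKM), so the other alpha subunits together did not gain. The 3 beta subunits summed to 516, 569 and 588 FPKM in normal serum, against 547, 526 and 573 FPKM in heat-inactivated serum. Counting every alpha subunit known to pair with ITGB1, the ratio of their summed level to that of ITGB1 was 1.71 ± 0.0986 in normal serum and 1.26 ± 0.0583 in heat-inactivated serum (SD, n = 3 each), and the libraries did not overlap. This ratio includes ITGA5 and rises with it.

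Within the alpha pool ITGA5 and ITGA11 exchanged places. ITGA5 made up 57.0% ± 1.51 of the summed FPKM of the 7 alpha subunits in normal serum and 33.3% ± 0.826 in heat-inactivated serum (SD, n = 3 each). ITGA11 made up 18.2% ± 0.781 in normal serum and 44.9% ± 0.287 in heat-inactivated serum. ITGA2 held 4.08% ± 0.492 in normal serum and 1.47% ± 0.132 in heat-inactivated serum. The shares of ITGAV (6.43% in normal serum and 5.94% in heat-inactivated serum) and of ITGA6 (1.14% and 1.17%) overlapped between the treatments, although both genes were called higher in level. ITGA1, also called higher in level, held 6.50% ± 0.635 in normal serum and 7.70% ± 0.625 in heat-inactivated serum, barely apart (highest 7.23% in normal serum, lowest 7.24% in heat-inactivated serum).

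With all alpha subunits in the table grouped by ligand, RGD-binding subunits held 63.1% ± 1.29 of alpha FPKM in normal serum and 38.8% ± 0.444 in heat-inactivated serum (SD, n = 3 each). Collagen-binding subunits held 28.7% ± 1.16 in normal serum and 54.4% ± 0.599 in heat-inactivated serum, and laminin-binding subunits 7.76% ± 0.189 and 6.51% ± 0.210. Within the collagen-binding set ITGA11 remained the major subunit in both treatments, with 62.7% ± 2.13 in normal serum and 80.3% ± 1.20 in heat-inactivated serum. ITGA2 held 14.1% ± 1.14 of that set in normal serum and 2.63% ± 0.223 in heat-inactivated serum. These shares are ratios within a library, given as values with no test.

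**Figure D3:**
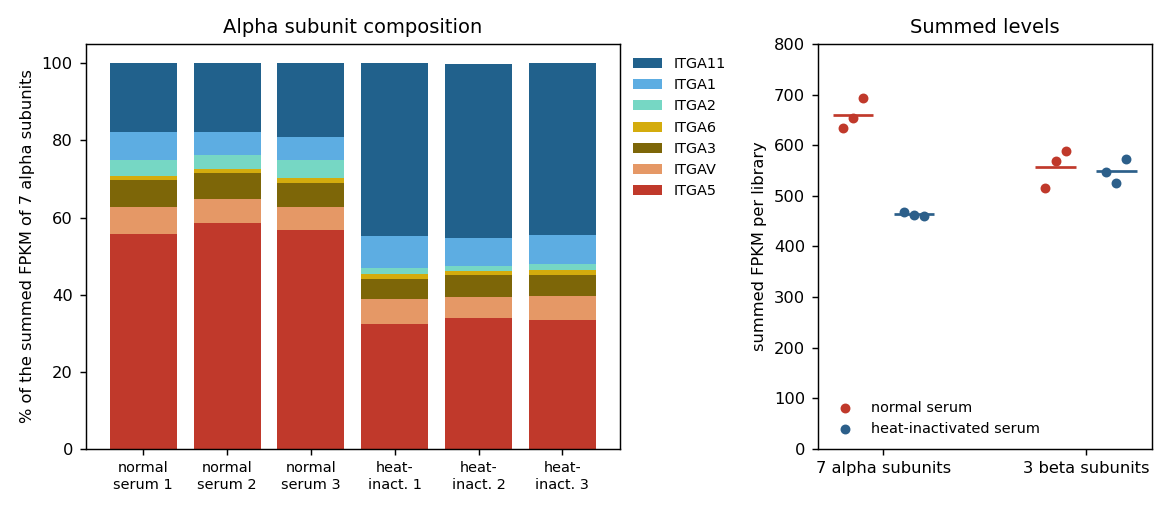
Left, share of each of the 7 alpha subunits in their summed FPKM, in percent, for the 3 normal serum and 3 heat-inactivated serum libraries; right, summed FPKM of the 7 alpha and the 3 beta subunits, with points for libraries and lines for means. ITGA5 fills 55.6% to 58.6% of the normal serum bars and 32.4% to 34.0% of the heat-inactivated serum bars, and the summed beta levels of the treatments overlap.

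Of the 10 genes, 5 had a single annotated transcript, and for the others the transcripts were compared between the treatments. ITGA1 was spread over 3 transcripts, and the authors' deposited table gave a log2 change of 0.42 (q = 0.0113) for the one of 2863 bases and of -0.50 (q = 0.264) for the main longer one of 4796 bases. The 2863-base transcript held 81.4% ± 1.52 of ITGA1 FPKM in normal serum and 73.0% ± 1.08 in heat-inactivated serum (SD, n = 3 each). The libraries of the treatments did not overlap in this share (79.8% to 82.7% in normal serum and 72.0% to 74.2% in heat-inactivated serum). A two-sided exact permutation test gave p = 0.1, the smallest that 3 against 3 libraries allow. The split of fragments between overlapping transcripts is an estimate of the authors' software.

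ITGA3 rose mainly through its 4489-base transcript, at 34.5 ± 1.11 FPKM in normal serum and 18.7 ± 1.16 FPKM in heat-inactivated serum (authors' deposited table, log2 change 0.88, q = 0.000223), while its 3150-base transcript had a log2 change of 0.47 (q = 0.128) in the authors' deposited table. The main ITGAV transcript of 6743 bases held 77.6% ± 4.94 of the gene in normal serum and 78.2% ± 3.87 in heat-inactivated serum, so the mix of ITGAV transcripts overlapped between the treatments. The same was true of ITGA6, whose 3276-base transcript held 72.2% ± 4.33 in normal serum and 71.2% ± 1.42 in heat-inactivated serum. The second ITGA11 transcript stayed below 1 FPKM in every library.

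**Figure D4:**
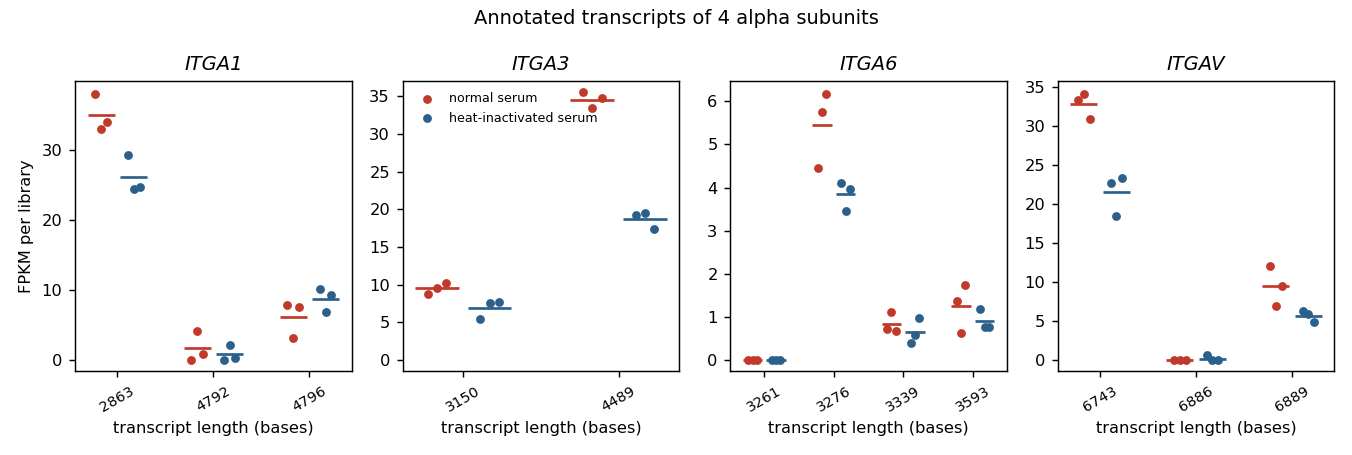
FPKM of each annotated transcript of ITGA1, ITGA3, ITGA6 and ITGAV by transcript length in bases; points are libraries and lines are means of 3, with separate linear axes per gene. The 2863-base ITGA1 transcript averaged 34.9 FPKM in normal serum and 26.1 FPKM in heat-inactivated serum, while the 4796-base transcript averaged 6.21 and 8.78 FPKM.

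The remaining integrin subunits were surveyed from a list of 16, of which 14 were found and 6 reached a mean of 1 FPKM. Of these 6, 2 were higher (ITGAE and ITGB2) and 4 lower (ITGA10, ITGA8, ITGA4 and ITGB4) in normal serum. Their median log2 change was -0.42, against 0.01 for all genes tested, of which 54.0% were called. ITGAE, ITGA4 and ITGB4 averaged below 1 FPKM in the treatment where they were lower. They passed the filter only through the other treatment, so their calls add little to the count. ITGA10, a collagen receptor subunit best known from cartilage, was at 1.29, 1.42 and 1.45 FPKM in normal serum, against 9.15, 8.65 and 7.77 FPKM in heat-inactivated serum. The libraries did not overlap, and the ratio of means was 0.163, against 0.577 for ITGA11 (log2 change -1.99, 95% interval -2.21 to -1.78; limma adjusted p = 6.96e-06). ITGAE, the alpha subunit that pairs with ITGB7 on lymphocytes of epithelia, was at 2.58 ± 0.560 FPKM in normal serum and 0.481 ± 0.119 FPKM in heat-inactivated serum (SD, n = 3 each; limma adjusted p = 0.000401), while ITGB7 stayed below 0.5 FPKM in every library. The ITGAE level in heat-inactivated serum rested on only about 12, 9 and 13 fragments.

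ITGB2, the beta subunit of the leukocyte integrins, was at 92.5, 94.7 and 91.4 FPKM in normal serum, against 75.4, 72.5 and 79.6 FPKM in heat-inactivated serum, higher than ITGB3 in every library. Of its usual partners, ITGAL and ITGAD were listed at 0 in all libraries, and ITGAM and ITGAX were looked for but not found by symbol. PTPRC, the common leukocyte antigen, reached at most 0.0509 FPKM, while the myeloid markers CD68, LYZ and CD14, named after their values were seen, averaged 8.62, 5.17 and 1.10 FPKM in normal serum, against 7.32, 7.82 and 1.45 FPKM in heat-inactivated serum. The part of such cells in the ITGB2 level was not tested. The ITGB2 rise (log2 change 0.29, limma adjusted p = 0.00434) was not called under an equal FPKM total (0.15, adjusted p = 0.183) or quantile normalization (0.09, adjusted p = 0.183). ITGA8, an RGD-binding subunit, was at 1.36 ± 0.105 FPKM in normal serum and 2.80 ± 0.594 FPKM in heat-inactivated serum (SD, n = 3 each; limma adjusted p = 0.00478). ITGA4 (limma adjusted p = 0.0436) and ITGB4 (limma adjusted p = 0.0250) lay near 1 FPKM. Within replicates 2 and 3 alone ITGA4 (adjusted p = 0.0597) and ITGB4 (adjusted p = 0.0964) were not called, and the ITGA4 call also ended on leaving out any single library except normal serum replicate 1 (adjusted p from 0.0633 to 0.119). The ITGB4 call ended on leaving out normal serum replicate 1 or 2 (adjusted p = 0.0589 and 0.0596) or heat-inactivated serum replicate 1 (adjusted p = 0.0615). The count of lower genes in this list was 2 under quantile normalization, within replicates 2 and 3, and on leaving out normal serum replicate 2 or heat-inactivated serum replicate 1. With a mean of at least 5 FPKM required, the list had 0 lower genes and 1 higher.

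The ligands of these receptors were followed in 3 lists. Their counts are to be read against all genes tested, of which 27.8% were higher and 26.1% lower. Of 10 collagen genes tested 2 were higher and 6 lower in normal serum, with a median log2 change of -0.37 against 0.01 for all genes. COL1A1 and COL3A1, the fibrillar collagens bound by ITGA11 and ITGA2, were at 2026 ± 92.8 and 795 ± 75.0 FPKM in normal serum, against 3869.7 ± 236 and 1888 ± 100.2 FPKM in heat-inactivated serum (SD, n = 3 each; limma adjusted p = 5.39e-05 and 3.58e-05). COL11A1 fell to 132 FPKM in normal serum, against 248 FPKM in heat-inactivated serum, and COL5A1 to 61.7 against 82.1 FPKM. COL6A1 and COL6A2 had log2 changes of -0.12 and -0.07 and were not called, although both were called lower with quantile normalization (-0.39 and -0.32). The 2 higher genes, COL4A1 and COL4A2 of the basement membrane, named after their values were seen, had log2 changes of 0.40 and 0.25, and neither was called higher under an equal FPKM total or quantile normalization.

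Of 6 laminin genes tested 3 were lower, with a median log2 change of -0.20. LAMB1, LAMB2 and LAMA4 fell, by 0.75, 0.56 and 0.24 on the log2 scale, while LAMC1 (0.01) and LAMA2 (-0.16) were not called. LAMA4 was not called within replicates 2 and 3 (adjusted p = 0.0735) or by its highest transcript only (adjusted p = 0.178). Its adjusted p was 0.0827 and 0.0772 on leaving out normal serum replicate 1 or 2, and 0.0608 and 0.104 on leaving out heat-inactivated serum replicate 2 or 3.

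RGD and matricellular ligands included 12 genes tested, of which 8 were higher and 3 lower, with a median log2 change of 0.35. SPP1, osteopontin, a ligand of ITGAV receptors, was at 114, 127 and 128 FPKM in normal serum, against 23.2, 17.4 and 24.1 FPKM in heat-inactivated serum. Each normal serum library was more than 4 times any heat-inactivated serum library (log2 change 2.47, limma adjusted p = 8.73e-06). THBS1 and CTGF, secreted proteins that bind several integrins, rose 3.49-fold and 1.93-fold, while FBN1, the RGD-bearing fibrillin of microfibrils, was at 99.5 ± 4.09 FPKM in normal serum and 172 ± 4.19 FPKM in heat-inactivated serum (SD, n = 3 each; limma adjusted p = 4.64e-05). FBLN5 was not called (log2 change -0.32, adjusted p = 0.0807). The number of higher genes was 4 under an equal FPKM total and 5 under quantile normalization. FN1, fibronectin, the ligand of the ITGA5 receptor, was listed at 0 in all libraries, and the authors' deposited table gives it the status HIDATA, the mark Cufflinks sets on loci with too many fragments, so its level could not be followed.

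Inside the cell, adhesion adaptors and kinases link integrin tails to actin. Of 29 such genes tested 15 were higher and 6 lower, with a median log2 change of 0.22, where 27.8% of all genes tested were higher and 26.1% lower. But the higher adaptor genes numbered 6 under an equal FPKM total and 8 under quantile normalization. The number of lower genes was 3 without heat-inactivated serum replicate 3. NEDD9, a scaffold of focal adhesion kinase signalling, was at 60.0, 60.0 and 60.9 FPKM in normal serum, against 23.4, 23.4 and 23.9 FPKM in heat-inactivated serum, a ratio of 2.56 (limma adjusted p = 3.57e-06). The tensins, which bind integrin beta tails, went opposite ways. TNS1 was at 12.0 ± 1.18 FPKM in normal serum and 4.03 ± 0.103 FPKM in heat-inactivated serum, and TNS3 at 13.0 ± 1.41 FPKM in normal serum and 30.1 ± 0.630 FPKM in heat-inactivated serum (SD, n = 3 each; limma adjusted p = 2.81e-05 and 4.52e-05). DOCK1, an activator of the GTPase RAC, fell by 0.70 on the log2 scale. TLN1, the talin that activates integrins, was at 127 ± 7.97 FPKM in normal serum and 122 ± 7.37 FPKM in heat-inactivated serum (limma adjusted p = 0.587), a difference of 0.05 on the log2 scale that was -0.09 under an equal FPKM total and -0.17 under quantile normalization. FLNA, a filamin that competes with talin for beta tails, had a log2 change of -0.11 and was not called (adjusted p = 0.106), but was called lower under an equal FPKM total (-0.26, adjusted p = 0.0487), quantile normalization (-0.39, adjusted p = 0.000521) and by its highest transcript only (-0.58, adjusted p = 0.000223).

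Of 20 activation regulators and membrane partners 8 were higher and 5 lower, with a median log2 change of 0.07, where 27.8% of all genes tested were higher and 26.1% lower. PLAUR, the urokinase receptor, which binds integrins laterally, was at 221, 226 and 223 FPKM in normal serum, against 86.6, 82.9 and 81.1 FPKM in heat-inactivated serum. The ratio of 2.67 was close to that of ITGA5 (limma adjusted p = 2.85e-06). RAP1B, a small GTPase upstream of talin, rose 1.77-fold and SDC1, a syndecan co-receptor, 1.85-fold. DAB2, an endocytic adaptor of integrins, was at 20.9 ± 0.404 FPKM in normal serum and 36.9 ± 1.01 FPKM in heat-inactivated serum (SD, n = 3 each; limma adjusted p = 4.61e-05). The tetraspanins CD63 (log2 change 0.18, adjusted p = 0.0717) and CD81 (0.05, adjusted p = 0.689) were not called, though CD63 was called higher on leaving out normal serum replicate 3 (0.23, adjusted p = 0.0279).

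Giving all libraries an equal FPKM total moved the median log2 change of all genes to -0.12 and the share of calls that were higher to 34.7%, against 51.6% with the deposited scaling. Relative to that median, the changes were 1.82 for ITGA2, 1.26 for ITGA5, 0.80 for ITGB3, 0.74 for ITGA3, 0.58 for ITGAV and -0.82 for ITGA11. Each of these 6 genes kept its direction and its call under all 18 alternatives. ITGA1 and ITGA6 were not called on that scale, and ITGB5 was called lower, although relative to the median it stood at -0.16, against -0.14 with the deposited scaling. The equal total includes very short transcripts. Heat-inactivated serum replicate 3 totalled 1007949 FPKM, against 852828 and 867794 FPKM in replicates 1 and 2. Over transcripts of at least 300 bases it totalled 776565 FPKM, against 775915 and 780423 FPKM. Rescaling by those transcripts left ITGA1 and ITGA6 uncalled as well (limma adjusted p = 0.399 and 0.102).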

How the data were processed

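Polyadenylated RNA of 3 normal serum and 3 heat-inactivated serum libraries was sequenced, and library titles gave treatment and replicate. Per the submitters' processing notes, the tools were Cuffdiff 2.1.1, Cufflinks 2.1.1 and TopHat2 2.0.7. No genome build is named in these sources. The authors deposited FPKM per transcript and library, and per transcript a log2 fold change of normal over heat-inactivated serum with a p-value and q-value.

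FPKM was summed per gene symbol, so reads of isoforms, paralogous copies or overlapping genes stay merged, and strand is not stated. A table of gene names gave symbols to 256 of the 7008 identifiers that lacked them. No identifier was added to the 10 genes. FPKM are not counts, so limma 3.58.1 under R 4.3.3 was run on log2(FPKM + 1), keeping genes averaging 1 FPKM or more (trended empirical Bayes variance, two-sided, Benjamini-Hochberg over 11818 genes), with no batch or replicate term. For low genes this scale makes changes look smaller. Ratios are of mean FPKM, and errors are SD unless named SE. No table held per-sample columns beyond the 6 libraries.

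The members, lists, ligand classes and alternatives were chosen with earlier results of these data known. The genes named were all 10 members, the other subunits with a mean of at least 1 FPKM, and in each list up to 4 called genes with the smallest adjusted p and up to 2 uncalled genes with the highest level. Others are marked, and 1 gene that meets this rule is not reported here. Alternatives varied pseudocount, filter, scaling, variance model, transcript summing, replicate terms and libraries. Depth came from values of single-transcript genes, where 1 fragment has a fixed worth. No sequences were used here.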

Additional observations from a re-analysis of the deposited data

How the results depend on the processing

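Under 18 alternatives, the number of integrin genes called higher was 7 as reported and 5 to 7 elsewhere. The number called lower was 1, and 2 with rescaling to the same total FPKM, with rescaling by transcripts of at least 300 bases (chosen after seeing the data) and with quantile normalization, as ITGB5 was then called. Leaving out 1 library gave 1 to 2 lower and 5 to 7 higher. Of all genes 3291 were called higher as reported, 1952 with rescaling to the same total FPKM and 2158 with rescaling by transcripts of at least 300 bases. The ITGB1 log2 change reversed to -0.10, -0.21 and -0.13 with rescaling, quantile normalization and rescaling by transcripts of at least 300 bases, and ran from -0.02 to 0.12 without single libraries. LAMC1 reversed to -0.13, -0.20 and -0.16 under those scalings and ran from -0.06 to 0.07 without single libraries. TLN1 reversed to -0.09, -0.17 and -0.12, CD81 to -0.09, -0.25 and -0.12 (-0.05 to 0.12 without single libraries), CD63 to -0.12 with quantile normalization, and LAMA2 to 0.13 with the highest transcript. Both rescalings moved the median of all genes, to -0.12 and -0.14, and relative to it ITGB1 was at 0.02 and 0.01, against 0.03 as reported, so those sign changes of ITGB1 follow the shift of all genes. For the other reversals the cause was not tested. With the highest transcript standing for a gene, ITGA5 held 59.7% of alpha FPKM in normal serum and 35.1% in heat-inactivated serum. Deviations of same-numbered libraries correlated at 0.193, 0.0333 and 0.00593 for replicates 1, 2 and 3. Libraries with different numbers ran from -0.134 to 0.106. The values thus showed no pairing by number for replicates 2 and 3. The replicate 1 pair was above that range, and its libraries also stand apart in their low values. The cause of this was not tested. A replicate block gave 6775 calls against 6381, and 8 of the 10 integrin genes in both fits. Depth limits the subunits near 1 FPKM, where ITGAE had about 9 fragments in its lowest library and ITGB4 about 18.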

Other observations

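Several integrin subunits below the filter of 1 FPKM, named after their values were seen, differed between the treatments at low depth. ITGB6, the beta subunit of an ITGAV receptor known from epithelia, was at 0.288, 0.299 and 0.215 FPKM in normal serum, against 0, 0 and 0.0154 FPKM in heat-inactivated serum. That corresponds to about 17, 20 and 17 fragments in normal serum and 0, 0 and 1 in heat-inactivated serum, with the replicate 1 numbers approximate. ITGB8, which also pairs with ITGAV, ran the other way, with about 8, 3 and 6 fragments in normal serum and 16, 19 and 21 in heat-inactivated serum. ITGA2B, the platelet alpha subunit, had about 4, 3 and 1 fragments in normal serum and 16, 22 and 15 in heat-inactivated serum. With no filter on low values, limma gave adjusted p-values of 0.00166 for ITGB6, 0.00892 for ITGB8 and 0.00230 for ITGA2B. Since these genes were picked for their differences, the p-values are descriptions and not independent support.

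Genes named for integrin binding, also seen after their values, moved in both directions. CIB1, a calcium-binding protein that binds integrin alpha tails, was at 190.2 ± 9.78 FPKM in normal serum and 99.8 ± 8.05 FPKM in heat-inactivated serum (SD, n = 3 each). Its relative CIB2 was at 6.84 ± 0.149 FPKM in normal serum and 10.2 ± 1.07 FPKM in heat-inactivated serum. The libraries of the treatments did not overlap for either gene.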
